A study of Mus musculus with 6 samples.

Results

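Type VI collagen was described here by the H3K9me3 peaks assigned to the 6 genes of its chains, Col6a1 to Col6a6, in Bergmann glia (BG), the radial astroglia that guide granule cells through the cerebellar cortex. A peak was a member when the gene named beside it in the WT-specific list was one of the 6, which gave 17 of the 34673 peaks of the list. The ChIP-seq series had 6 libraries of BG from C57BL/6 mice at postnatal day 10, of which 2 were H3K9me3 libraries of WT BG, 2 were H3K9me3 libraries labelled MT, and 2 were control libraries titled input whose antibody label is IgG. In the study's methods, mutant BG come from mice with a floxed Setdb1 gene and mGFAP-Cre, a driver that is also active in granule neuron precursors and oligodendrocytes, and BG were sorted by GFP driven by a Nestin promoter. The genotype of the control libraries and whether the libraries of a genotype came from separate animals are not given in the sources used here. Going by its title and the study's definition, the list holds peaks that WT BG had and mutant BG lacked. Whether the peaks were called against input, mutant BG or both is uncertain. Libraries are already merged in the list, so no value has a replicate error and depth is unknown. No test between WT and mutant BG was possible.

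Collagen VI forms the fine beaded microfibrils that lie around cells and next to basement membranes. The alpha 1 and alpha 2 chains join with one more chain, usually alpha 3, into a short triple helix flanked by globular von Willebrand factor A domains, and these units are stacked into microfibrils outside the cell. The alpha 4, alpha 5 and alpha 6 chains resemble alpha 3 and can take its place. In the brain the protein is best known from the meninges and vessel walls, and faults in the alpha 1, alpha 2 and alpha 3 genes cause inherited muscle disease. H3K9me3, trimethylated lysine 9 of histone H3, marks silent chromatin, and Setdb1 is one of the methyltransferases that place it.

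The 17 peaks fell into 3 loci. On chromosome 10, Col6a2 (gene from 76595756 to 76623630) and Col6a1 (from 76708792 to 76726044) had 5 and 4 peaks. On chromosome 9, Col6a6 (105689417 to 105828246), Col6a5 (105856070 to 105962463) and Col6a4 (105990318 to 106096828) had 4, 2 and 1. On chromosome 1, Col6a3 (90766860 to 90844001) had 1. All 6 genes lie on the minus strand, so upstream means a higher coordinate, and all positions are of mm10. The genes on chromosome 10 had their peaks outside the genes, and the others had theirs inside.

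The sequences below are the central 300 bases of the strongest peak of Col6a2, of Col6a1 and of Col6a6, and of the peak in a coding exon of Col6a5, since the account of the 2 clusters turns on them. They are the plus strand of the RefSeq genome (GRCm38.p6, which shares its coordinates with mm10), with CG dinucleotides, the sites of DNA methylation, in capitals.
Col6a2, chr10:76654972-76655271: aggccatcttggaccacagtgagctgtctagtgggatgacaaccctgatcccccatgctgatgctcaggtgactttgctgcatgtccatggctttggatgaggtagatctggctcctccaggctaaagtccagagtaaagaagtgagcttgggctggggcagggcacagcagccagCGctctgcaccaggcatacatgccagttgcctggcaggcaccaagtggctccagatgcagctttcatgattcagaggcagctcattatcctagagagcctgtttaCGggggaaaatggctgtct
Col6a1, chr10:76696267-76696566: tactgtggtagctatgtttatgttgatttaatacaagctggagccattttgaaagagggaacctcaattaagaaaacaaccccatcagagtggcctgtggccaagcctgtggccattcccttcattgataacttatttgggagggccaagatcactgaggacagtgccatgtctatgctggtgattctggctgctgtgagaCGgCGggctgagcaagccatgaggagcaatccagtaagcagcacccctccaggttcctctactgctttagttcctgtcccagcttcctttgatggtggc
Col6a6, chr9:105742211-105742510: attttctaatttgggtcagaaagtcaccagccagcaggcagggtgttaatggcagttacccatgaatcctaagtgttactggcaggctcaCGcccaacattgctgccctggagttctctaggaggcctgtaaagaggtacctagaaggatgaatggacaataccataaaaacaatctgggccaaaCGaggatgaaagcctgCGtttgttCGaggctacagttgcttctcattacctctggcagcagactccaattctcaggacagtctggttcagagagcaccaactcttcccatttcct
Col6a5, chr9:105925797-105926096: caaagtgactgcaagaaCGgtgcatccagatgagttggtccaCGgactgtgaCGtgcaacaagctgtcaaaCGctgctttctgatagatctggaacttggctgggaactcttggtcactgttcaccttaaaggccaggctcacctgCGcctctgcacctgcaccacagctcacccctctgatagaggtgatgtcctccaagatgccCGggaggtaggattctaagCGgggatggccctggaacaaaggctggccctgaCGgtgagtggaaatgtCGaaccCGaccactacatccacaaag
The windows of Col6a2 and Col6a1 hold 2 CG each, the window of Col6a6 holds 4 and the exonic window of Col6a5 holds 10. Over the 17 peaks the number of CG in such a window was 1 to 10 with a median of 5, beside a median of 4 over the 34599 peaks of the list whose window could be read.

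The space between Col6a2 and Col6a1 held 8 peaks, and neither gene body held any. Col6a2 and Col6a1 encode the alpha 2 and alpha 1 chains, which are in every collagen VI unit, and both are read in the same direction, so that the space of 85.2 kb (76623631 to 76708791) is upstream of Col6a2 and downstream of Col6a1. The peak nearest to Col6a2 spanned 76629145 to 76629645, had a score of 7.70 and was centred 5.76 kb from its transcription start site (TSS) on MLT1F2, an old retrovirus-like element of the ERVL-MaLR family. Next, 8.88 kb from the TSS and outside repeats, was a peak from 76632262 to 76632762 with a score of 6.42. The score is the peak score the authors deposited. Its scale was not stated, and it serves only to rank peaks within the list, whose median is 7.06.

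Farther from Col6a2, at 15.7 kb, a peak from 76639035 to 76639680 with a score of 8.34 was centred on MTC-int, the internal part of another ERVL-MaLR element. At 31.5 kb lay the strongest peak of the 17, from 76654738 to 76655505, with a score of 16.0 and no repeat at its centre. It was also the widest at 767 bp, and 3.30% of all peaks scored as high or higher. The last peak assigned to Col6a2 spanned 76665518 to 76666144, had a score of 8.99 and was centred 42.2 kb from the TSS on L1M5, an old LINE element.

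The other 3 peaks of the space were nearer to the TSS of Col6a1 and were assigned to it, although they lie beyond the 3′ end of that gene. The one from 76679435 to 76680065 had a score of 9.63, lay 46.3 kb from the Col6a1 TSS and was centred on Lx3_Mus, a rodent L1 element. A peak from 76685405 to 76685905, outside repeats, had a score of 6.74 at 40.4 kb. Both of these lie in Gm35608, a long noncoding RNA gene model from 76677722 to 76686803. The peak nearest to the end of Col6a1, 12.4 kb beyond it, spanned 76696043 to 76696790 and had a score of 13.8, with 5.37% of all peaks as high or higher. It was centred on MTC, an LTR of the ERVL-MaLR family. The fourth peak of Col6a1, from 76767334 to 76767834 with a score of 5.78, lay 41.5 kb upstream of the TSS in intron 10 of 11 of Pcbp3, the gene of a poly(C)-binding protein.

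**Figure D1:**
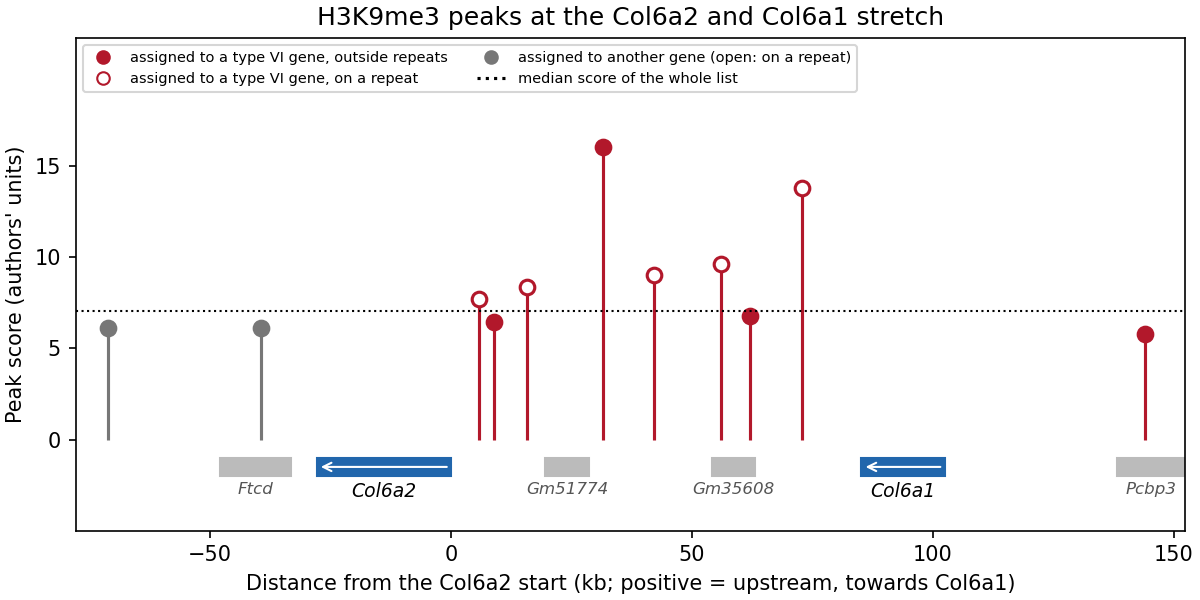
H3K9me3 peaks from 50 kb beyond Col6a2 to 50 kb beyond Col6a1. The x axis gives the distance from the Col6a2 start in kb, the y axis the authors' score. Filled points lie outside repeats and open points on repeats, in red for type VI genes and grey for others. Boxes are genes, blue for Col6a2 and Col6a1 with arrows in the direction of transcription, and grey for some neighbours. The 8 peaks between the genes score 6.42 to 16.0, and no peak lies over either blue box.

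The 8 peaks of the space were 3.12 to 15.8 kb apart (median 10.7 kb) and covered 4915 bp, 5.77% of it. They stood on 5 repeats of 5 different names and outside repeats at the other 3. In all, 6 of the 8 were at or above the median score of the list and 5 were wider than 500 bp, the width of most peaks. This came to 93.9 peaks per Mb, beside 13.3 over chromosome 10 and 19.2 over spaces of like length between protein-coding genes. Of 2223 spaces between neighbouring protein-coding genes that were 56.8 to 128 kb long, the median held 1 peak, 29.1% held none, and 14 (0.630%) held at least 8. The space was set beside these others after its peaks had been seen, so the share is a description and not a test.

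**Figure D2:**
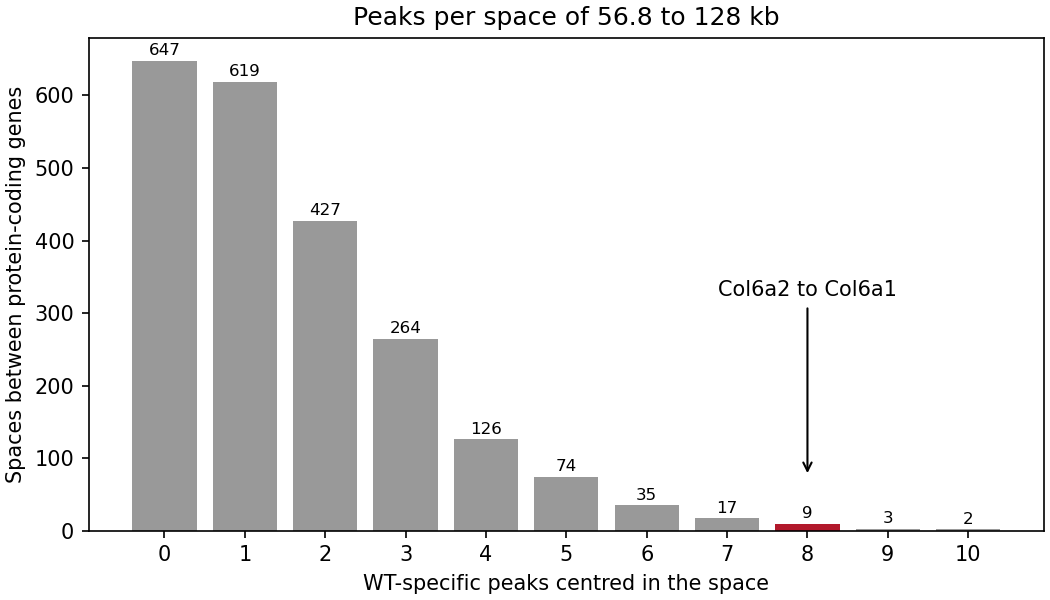
Number of spaces between neighbouring protein-coding genes (y axis, with the count above each bar) by the number of WT-specific peaks centred in them (x axis), for the 2223 spaces of 56.8 to 128 kb. The bar in red, at 8 peaks, holds the space between Col6a2 and Col6a1 and 9 spaces in all.

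Read as 1 stretch with 50 kb to each side (76545756 to 76776044, 230 kb), the pair had 11 peaks. Besides the 9 peaks of Col6a1 and Col6a2, a peak with a score of 6.10 was assigned to Ftcd, the gene of a folate-dependent enzyme of histidine breakdown, in whose exon it lies. Another with a score of 6.10 was assigned to 4930483K19Rik, a long noncoding RNA gene, and lies in an intron of the overlapping Lss, the gene of a sterol synthesis enzyme. Both lie beyond the 3′ end of Col6a2 and score below each of the 8 peaks of the space.

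Col6a6, Col6a5 and Col6a4, the genes of the chains that resemble alpha 3, stand one behind the other on chromosome 9, and their peaks lay inside the genes. Over the 352 kb of the 3 gene bodies there were 9 peaks, or 25.6 per Mb, beside 13.3 over chromosome 9. The 2 spaces between them, of 27.8 and 27.9 kb, held 0. Col6a6 held 6 peaks, of which 4 were assigned to it. The strongest spanned 105742046 to 105742674 in intron 20 of 36, outside repeats, with a score of 10.3, and 13.8% of all peaks scored as high or higher. In the same intron, 4.09 kb away, a peak from 105746198 to 105746698 with a score of 6.10 was centred on LTRIS2, an LTR of the ERV1 family.

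The other 2 peaks assigned to Col6a6 lay in the first intron of its long transcript. The peak from 105820381 to 105820881 had a score of 6.10 and was 7.45 kb from the TSS of that transcript. The peak from 105808921 to 105809421, centred on MLT2D of the ERVL family, was 0.477 kb downstream of the TSS of a shorter Col6a6 transcript and had the lowest score of the 17, 5.13, with 99.9% of the list at or above it. It was the only one of the 17 centred within 1 kb of a TSS of its gene. The 2 peaks in the 3′ part of Col6a6, with scores of 6.10 and 6.74, were assigned to Pik3r4, the neighbouring gene of a regulatory subunit of a lipid kinase, because its TSS is nearer.

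Col6a5 had the only exonic peak of the 17. It spanned 105925696 to 105926196, had a score of 8.66, with 24.4% of the list as high or higher, and covered the whole of exon 9 of 41, a coding exon of 341 bp from 105925760 to 105926100. The second Col6a5 peak, from 105938008 to 105938508, had a score of 7.70 and lay in intron 4 of 40. Col6a4, of which the human counterpart is a broken gene, had a peak with a score of 7.70 from 106081642 to 106082268, in intron 2 of 37, on the ERVL element MT2A. With 50 kb to each side this stretch had 11 peaks, the last 2 of which, upstream of Col6a4 with scores of 6.74 and 6.42, were assigned to the microRNA gene Mir135a-1.

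**Figure D3:**
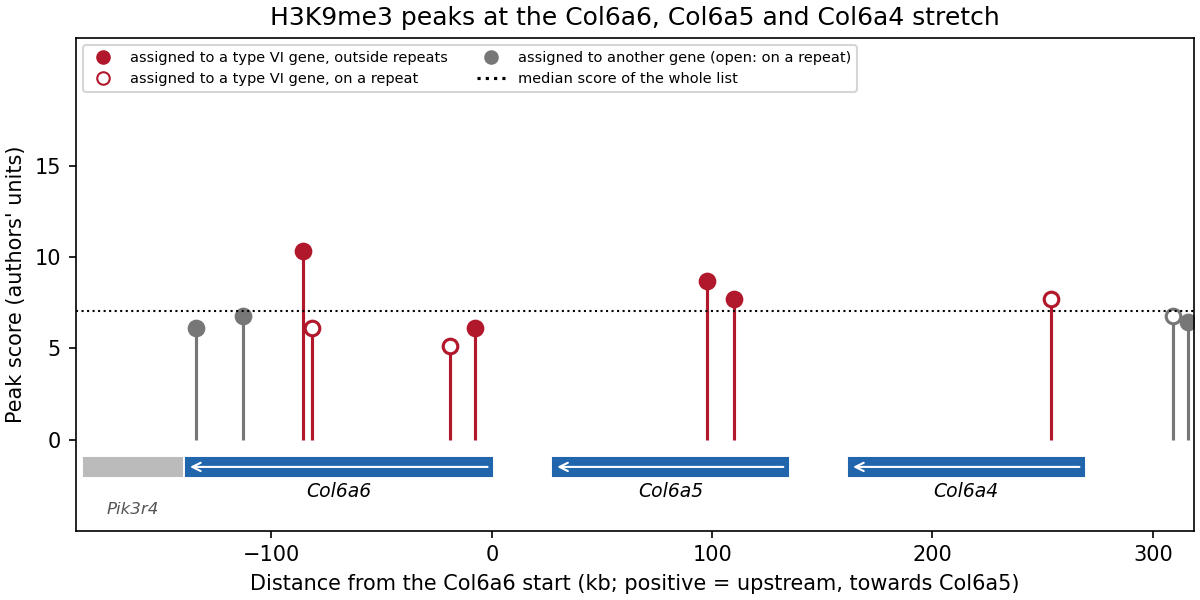
H3K9me3 peaks from 50 kb beyond Col6a6 to 50 kb beyond Col6a4, with the distance from the Col6a6 start in kb on the x axis, the authors' score on the y axis (points marked as for chromosome 10), the 3 type VI genes as blue boxes and Pik3r4 in grey. The 9 peaks over the blue boxes score 5.13 to 10.3, and the 2 spaces between the boxes are empty.

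Col6a3, which encodes the usual partner of alpha 1 and alpha 2 and stands alone on chromosome 1, had 1 peak, from 90787613 to 90788113 in intron 24 of 40, 56.1 kb from the TSS. Its score of 6.42 was below the median, and 69.2% of the list was at or above it. No other peak lay within 50 kb of the gene, and the nearest was 103 kb from this one. The 177 kb with the flanks thus had 5.65 peaks per Mb and the gene body 13.0, beside 10.9 over chromosome 1. Both values rest on this 1 peak. Read with the same flanks, the stretches of chromosomes 10 and 9 had 47.8 and 21.7 peaks per Mb.

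The scores of the type VI genes ran from near the lowest of the list to its top 3.30%, from 5.13 to 16.0 with a median of 7.70, beside a median of 7.06 over all peaks, and 10 of the 17 (58.8%) were at or above that median, beside 51.7% of all peaks. By gene, the lowest, median and highest scores were 6.42, 8.34 and 16.0 at Col6a2, 5.78, 8.19 and 13.8 at Col6a1, and 5.13, 6.10 and 10.3 at Col6a6. The ranges overlap, and only Col6a2 and Col6a1 had a peak above 10.3. Of the 17 peaks, 7 (41.2%) were wider than 500 bp, beside 22.9% of the list. With 17 peaks and no value per library these differences have no test.

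**Figure D4:**
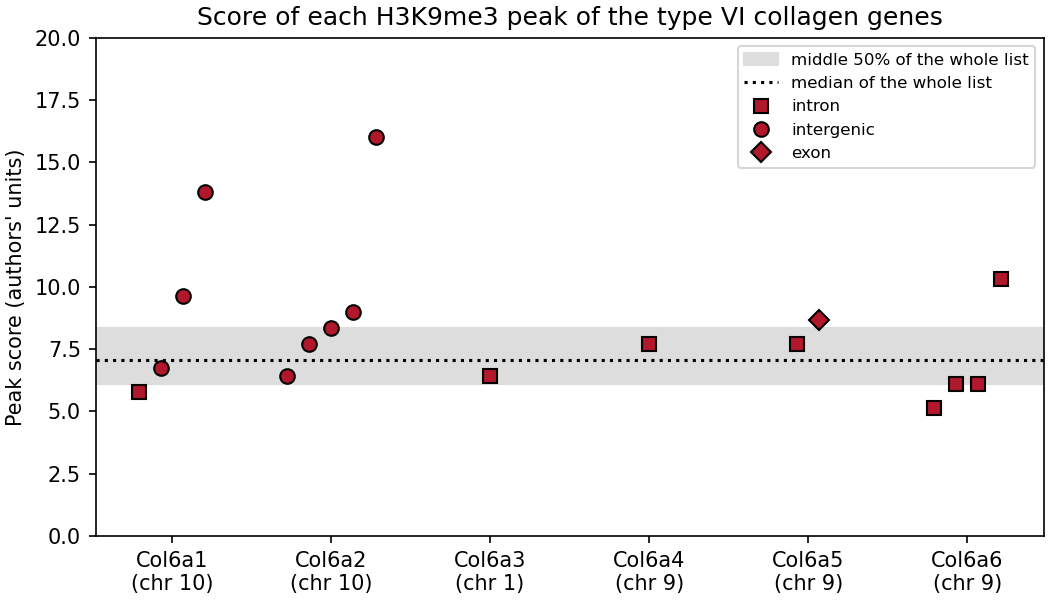
Deposited score (y axis) of each of the 17 peaks by gene (x axis), with the shape of a point giving the class of the peak, the grey band the middle 50% of all peaks (6.10 to 8.34) and the dotted line their median of 7.06. The 2 highest points, 16.0 and 13.8, are intergenic peaks of Col6a2 and Col6a1.

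By class, 8 of the 17 peaks were intergenic (47.1%, 95% Wilson interval 26.2 to 69.0%, counting error only), 8 intronic and 1 exonic, beside 59.4% intergenic and 34.2% intronic in the list. All 8 intergenic peaks lie in the 1 space between Col6a2 and Col6a1. The intervals given here count peaks that share a locus as separate draws. None of the 17 was in the promoter class, which held 0.805% of the list. A repeat was at the centre of 8 (47.1%, 26.2 to 69.0%), beside 54.0% of the list. LTR elements held 6 (35.3%, 17.3 to 58.7%), beside 26.6% of the list. Of these, 3 were ERVL-MaLR, 2 ERVL and 1 ERV1, families that held 8.96, 1.59 and 2.99% of the list. L1 elements held 2 (11.8%, 3.29 to 34.3%), beside 16.3%. ERVK, an LTR family with many young members and 13.0% of all peaks, held 0 of the 17 (Wilson interval up to 18.4%).

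The peaks on repeats were also ranked by score among all peaks of the list on elements of the same name. At Col6a1 and Col6a2, the MTC peak was 8th of 232 on MTC (median 7.06, highest 23.7). The Lx3_Mus peak was 27th of 177 (median 6.74), the MTC-int peak 12th of 47 (median 7.06) the MLT1F2 peak 2nd of 13 (median 6.10) and the L1M5 peak 3rd of 6 (median 8.35). On chromosome 9 the MT2A peak of Col6a4 was 11th of 43 (median 6.74), while at Col6a6 the LTRIS2 peak was 73rd of 97 (median 7.38) and the MLT2D peak the lower of 2.

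Most of the 17 peaks stood in sequence with no close copy elsewhere. This bears on where reads were placed, since a read that matched several places was kept at its best location. In a search of the peaks against the chromosomes, 12 had no other match. Only 2 had another match of at least 100 bp at 90% identity or more, the Lx3_Mus peak of Col6a1 with 293 such matches and the LTRIS2 peak of Col6a6 with 4, so that which copy these 2 belong to is uncertain. The exonic peak of Col6a5 had no other match, in Col6a4, Col6a6 or elsewhere. The search finds only close copies, so it does not tell how alike the exons of these genes are. The score of 16.0 at Col6a2 was in sequence with no other match, whereas the MTC peak of Col6a1 had 1207 other matches of up to 98 bp and up to 100% identity, and the peak of Col6a3 had 890 of up to 124 bp and up to 98.0% identity.

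The letters TTGGCA, which a lone subunit of a nuclear factor I (NFI) dimer binds, were searched on both strands of the central 300 bases, since Nfix is the NFI factor the study links to Setdb1. It was in 3 of the 17 windows (17.6%), all on chromosome 9 and all on the minus strand, beside 17.4% of 34599 windows of the list. They are shown with 10 bases to each side and the site, which reads TGCCAA on the plus strand, in capitals.
Col6a6, chr9:105809149-105809174: ggctggcaggTGCCAAatttcccaat
Col6a5, chr9:105938115-105938140: cacggtcctcTGCCAAgcacaggttg
Col6a4, chr9:106082079-106082104: ttcaggccgcTGCCAAacaggctggg
None of the 8 windows between Col6a2 and Col6a1 had these letters. The paired site, TTGGC and GCCAA with 5 bases between them, was in none of the 17 and in 6 windows of the list (0.0173%). In the 7 RefSeq promoters of the 6 genes (250 bases before to 50 after a start, GRCm38.p6), TTGGCA was in that of Col6a5, 2 times, beside 14.1% of 32851 promoters.

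All 6 type VI genes had at least 1 assigned peak, beside 49.7% of 21000 protein-coding genes, and 4 of the 6 had a peak centred inside the gene, beside 31.3%. Longer genes had a peak more often, so each member was also read beside genes within 1.5 times its length. Of 4551 genes about as long as Col6a2 (27.9 kb), 51.2% had a peak and 5.10% had 5 or more. Of 4656 genes about as long as Col6a1 (17.3 kb), 47.1% had a peak and 6.92% had 4 or more. All peaks of Col6a2 and Col6a1 lie outside the genes, mostly in the space between them. The space around a gene was not matched, so these shares are no second observation beside that space. For Col6a6 (139 kb), 22.1% of 1703 such genes had 4 or more. For Col6a5, Col6a4 and Col6a3 the shares with as many peaks or more were 45.5, 68.3 and 63.4%, so these 3 stood near the middle of genes of their length.

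Type IV collagen, the network collagen of basement membranes, also has 6 genes. Of these, 5 had a peak centred inside, beside 4 of the type VI genes and 31.3% of all protein-coding genes. An assigned peak was found at 3 (Col4a2 with 6, Col4a1 with 4 and Col4a4 with 2), beside 49.7% of protein-coding genes. The median score of the 12 peaks was 7.54. Col4a1 and Col4a2 are read away from each other from one shared start, and 8 of their 10 peaks lay in the body of the partner gene, with 2 between genes. With a shared start, a small difference in TSS position decides which of the 2 genes a peak is assigned to. By position alone, Col4a1 held 4 peaks and Col4a2 held 6. At Col6a1 and Col6a2, 8 of 9 assigned peaks lay between genes and 1 in Pcbp3. Of the 32 collagen genes of other types, 23 had a peak (71.9%), led by Col26a1 with 8 and Col18a1 with 6. These genes are long, with a median of 110 kb, beside 138 kb for type IV. Of genes about as long as Col6a5 (106 kb) and Col6a6 (139 kb), 68.2% and 71.3% had a peak. Between protein-coding genes lay 8 of all 17 type VI peaks (47.1%) and 30 of 77 peaks (39.0%) of the 38 other collagen genes. The intergenic class, a related measure, held 59.4% of the whole list. Of those 38 genes, 3 had at least 3 peaks between genes, Col18a1, Col3a1 and Col5a1, as did Col6a1 and Col6a2. No test was run between the collagen types.

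**Figure D5:**
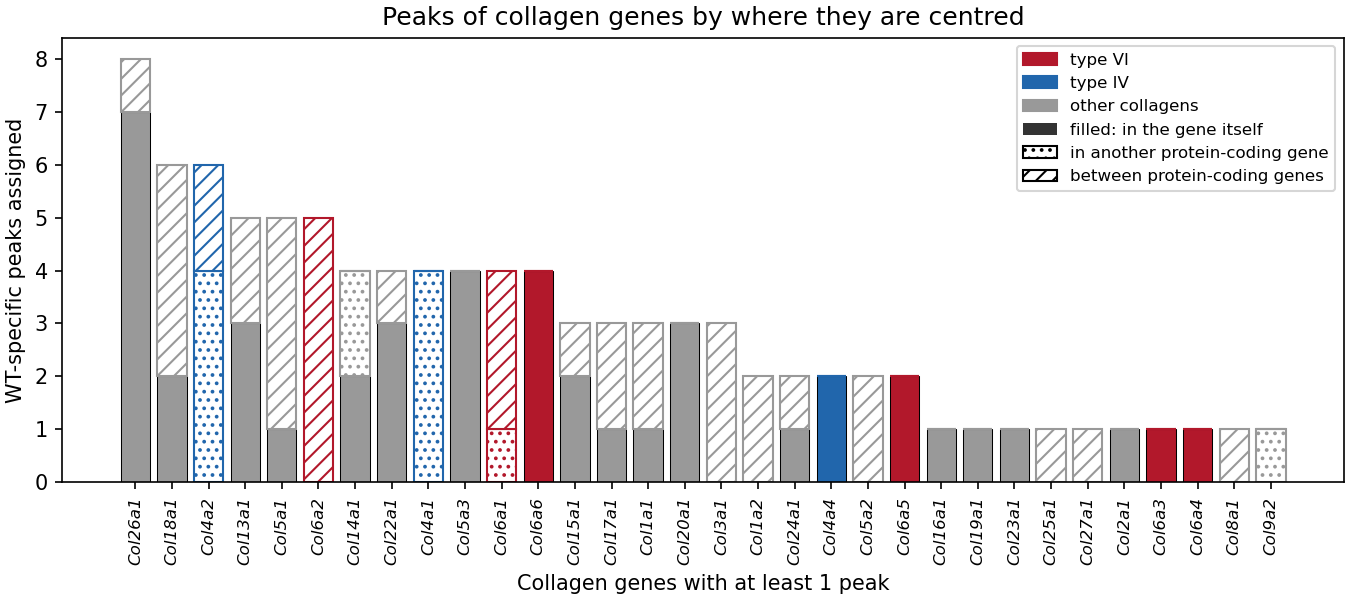
WT-specific peaks assigned to each collagen gene with at least 1 peak (y axis, number of peaks), with type VI in red, type IV in blue and other types in grey. Filled parts are peaks in the gene itself, dotted parts peaks in another protein-coding gene and striped parts peaks between protein-coding genes, where 5 peaks of Col6a2 and 3 of Col6a1 lie.

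Partners of collagen VI were counted in 3 lists, whose genes differ in length (median 103 kb for receptors, 49.0 kb for matrix partners and 30.7 kb for chain folding and processing), and no test was run between them. Of 8 receptor genes, 6 had an assigned peak (75.0%). Itga11, which encodes an integrin chain for collagen, had 6 with a highest score of 9.95, and Antxr1, an anthrax toxin receptor gene whose product binds collagen VI, had 5 with a highest score of 10.9. Of 14 matrix partners 7 had one (50.0%), led by Lum, the gene of the small proteoglycan lumican, with 5 intergenic peaks and a highest score of 14.4. The rest had 0 assigned, among them Emilin1, and Bgn and Dcn, the genes of the related biglycan and decorin. Fn1 also had 0 assigned, but 1 peak in its body was assigned elsewhere. Of 9 genes of chain folding and processing 4 had one (44.4%), with 2 at Serpinh1, the gene of a collagen chaperone, and 1 each at P4ha1, P4ha2 and P4ha3, the genes of prolyl hydroxylase subunits. The share over all protein-coding genes, 49.7%, lies between those of these lists. Of genes about as long as Col6a5 (106 kb), close to the receptor median, 68.2% had a peak. Of genes about as long as Col6a2 (27.9 kb), close to the median of the folding list, 51.2% had one.

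The list has no expression values, so the labelled cell type could not be checked against its markers. Of 12 BG and astroglial markers, which are short (median 9.83 kb), 5 had an assigned peak (41.7%, beside 49.7% of protein-coding genes). These 5 were Aqp4 and Slc1a3 with 4 peaks each, Glul with 2, Gdf10 with 1, and Hopx with 1 at a score of 28.6. The others were Acsbg1, with 1 peak in its body that was assigned elsewhere, and Fabp7, Gfap, Nes, S100b, Sox2 and Sox9, with none. Peaks were assigned to 3 of 5 perivascular fibroblast markers, 5 of 6 microglial and endothelial markers, 3 of 5 oligodendrocyte markers, 3 of 5 granule neuron markers and 3 of 4 Purkinje cell markers. A gene with no peak here may still carry H3K9me3 that is equal in mutant BG or too low to be called, which holds also for the bodies of Col6a1 and Col6a2. RNA levels of the type VI genes were not analysed here.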

How the data were processed

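H3K9me3 ChIP-seq peaks of BG at postnatal day 10 were analysed. Per the labels and methods, chromatin was sheared to 200 to 350 bp and precipitated with 1.5 µg of antibody. The authors aligned reads to mm10 with Bowtie2 (2.2.8 in the submitters' processing notes), kept 1 best location per read and 1 tag per position, and called peaks with HOMER (4.10.1) at a false discovery rate of 0.001 and 4-fold over the local 10 kb. The deposited score, position, class, repeat and distance to the TSS were used as given. The heading names a control that may mean input, mutant BG or both, so the background of the call is uncertain.

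Positions were set beside RefSeq genes and sequence of GRCm38.p6 with Python 3.11.15 and pandas 2.3.3. A peak lay in a gene when its centre did. Promoters were the authors' class. Other matches were sought with BLAST 2.17.0 (megablast, identity of 80% or more, E-value up to 1e-10). The motif search and the nearest-TSS step were tested on simulated data. Intervals are 95% Wilson intervals (scipy 1.17.1). Named genes were planned as the 6 members, genes assigned a peak in the 3 stretches, and up to 4 members with most peaks of each fixed list, of which the text gives a part. Outside this plan, the text also names Hopx, genes in which a peak lies, some list genes with no assigned peak, and collagens with at least 3 peaks between genes. Members and lists were chosen with earlier results of these data known.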

Additional observations from a re-analysis of the deposited data

How the results depend on the processing

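All 17 assignments to type VI genes came out the same when the nearest TSS was recomputed from RefSeq, beside 87.9% over the list. The 17 peaks became 8 when limited to the gene body or 5 kb around it (0 at Col6a1 and at Col6a2), 4 within 10 kb of the TSS, 9 outside repeats and 10 at or above the median score. The 6 genes with a peak became 2 (Col6a2 and Col6a6) within 10 kb of the TSS. The share on a repeat went from 47.1% to 11.8% when a repeat meant at least 50% of bases soft-masked in the reference. By that measure the share was 34.7% over the peaks of the list whose window could be read. The mask reached 60.0% of all peaks the authors put on a repeat, and 2 of the 8 such type VI peaks. The Col6a1 and Col6a2 stretch held 6 of its 11 peaks outside repeats, and the Col6a3 stretch held 3 in place of 1 with 100 kb to each side. The other settings tried stayed within 1.5 times the count, or within the interval or spread, of the value reported. No replicate could be left out, since libraries are merged in the list. No paired analysis was possible because the columns carry no library and no result comes from a test.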
